A study of Schmidtea mediterranea with 6 samples.

Results

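The genes described here were at least tripled in sorted stem cells of the planarian Schmidtea mediterranea after RNA interference against Smed-exoc3, which codes for a subunit of the exocyst, the complex that tethers secretory vesicles to the plasma membrane. A gene belonged to the set when its mean in exoc3(RNAi) was at least 2 CPM (reads of the gene per 1000000 counted reads of that library), its mean was at least 3 times that in gfp(RNAi), and its lowest exoc3(RNAi) library lay above its highest gfp(RNAi) library. Of 30917 gene models, 78 met these limits and 71 form the set, after 7 genes were left out by identifier. The limits turned the other way, with gfp(RNAi) at least 3 times exoc3(RNAi), were met by 2 genes.

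Asexual, starved worms received injections of double-stranded RNA that targets Smed-exoc3, exoc3(RNAi), or gfp, a sequence with no match in the planarian genome, gfp(RNAi), in 2 rounds of 3 daily injections. X1 cells were then sorted by flow cytometry as the irradiation-sensitive, mitotically active cells of the animal. Each group had 3 libraries, described as biological replicates, and each replicate held cells pooled from several worms. Knockdown was therefore body-wide, and the cells were measured as a mixture.

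X1 cells are mostly neoblasts, the dividing stem cells that renew all planarian tissues, and the gate also takes in committed progenitors. In a mixture of this kind, more cells of a type and more RNA per cell cannot be told apart. Lysosomes are the compartments where hydrolases break down proteins, lipids and sugars, and saposins are small cofactors that present lipids to those enzymes. Solute carriers move nutrients and ions across membranes, innexins build the gap junctions of invertebrates, and receptor-type tyrosine phosphatases remove phosphate groups from signalling proteins. Sequences of these gene models were not used here, so the genes are given by identifier and by the name or protein domain that the study's annotation pairs with it.

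The 6 libraries held 28897363 to 37525894 counted reads. Smed-exoc3 itself (SMESG000022604.1) had 32.3, 31.7 and 43.5 CPM in exoc3(RNAi) against 68.4, 72.9 and 71.6 CPM in gfp(RNAi), so the groups did not overlap for the target. The exoc3(RNAi) replicate 3 stood apart. Its counts differed from those of exoc3(RNAi) replicates 1 and 2 by a chi-square per degree of freedom of 7.75 and 7.05, where the other pairs of libraries within a group gave 1.33 to 3.004. It was also the library with the least complete knockdown of the 3. For genes with single libraries printed below, ratios that it moves across a limit or by a wide margin are given with and without it. Some genes that it moves across a limit are not listed.

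The tripled genes made up a small share of the reads. Summed over all 71, they reached 632.0, 630.8 and 814.6 CPM in exoc3(RNAi) against 171.2, 168.0 and 169.0 CPM in gfp(RNAi), which is 0.0631% to 0.0815% of the reads in exoc3(RNAi) and 0.0168% to 0.0171% in gfp(RNAi). The 3 gfp(RNAi) sums were nearly equal, and the excess of the highest exoc3(RNAi) sum came from replicate 3. The ratio of mean CPM was 3.0 to 12.3 with a median of 3.92, and 37 genes had a ratio under 4, 15 a ratio of at least 5 and 3 a ratio of at least 10. The set was chosen by these CPM values of the same 6 libraries, so they are a description and not a test.

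Most of the genes were read at a low level. Their mean was 2.002 to 90.2 CPM (median 4.49) in exoc3(RNAi) and 0.22 to 18.8 CPM (median 1.06) in gfp(RNAi), where the median over all 14700 genes tested was 11.5 CPM in exoc3(RNAi) and 11.4 CPM in gfp(RNAi). Single exoc3(RNAi) libraries held 27 to 3450 reads of a gene and single gfp(RNAi) libraries 3 to 662 reads. The median log2 ratio of mean CPM was 1.97 over the 71 genes and 0.07 over all genes tested. A quasi-likelihood test in edgeR called 53% of the genes tested at an adjusted p under 0.05, 25.8% higher in exoc3(RNAi) and 27.1% lower. With plain library totals, the scaling of CPM, 4643 were called higher and 3463 lower, so the balance of the background turned round. It called 71 of the 71, a count that the limits on ratio and overlap largely fix, so nothing is read from it. Among the genes tested, 35.6% had no overlap in this direction and 26.4% in the other, but a ratio of at least 3 was found for 1.13% (166 genes), of which 88 lay under the 2 CPM floor.

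**Figure D1:**
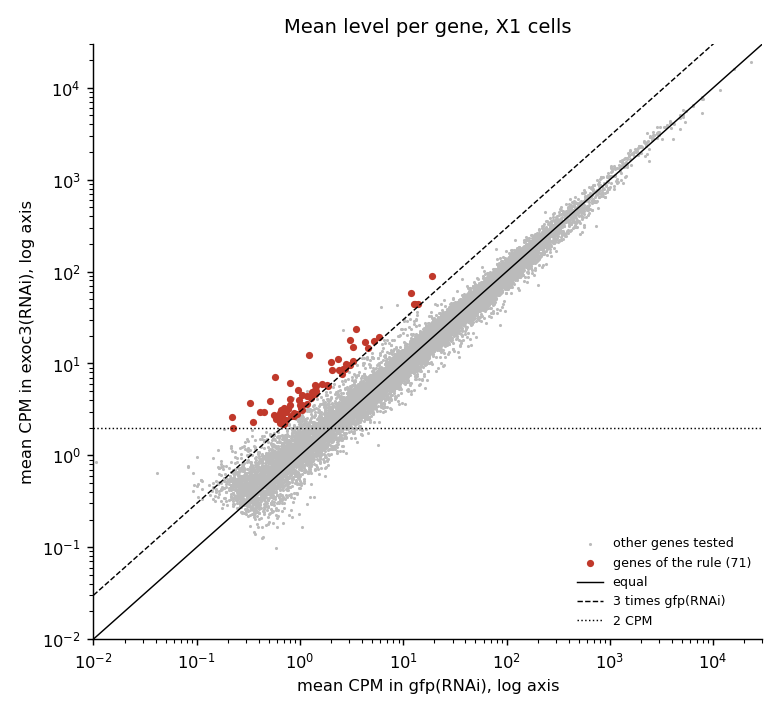
Each point is 1 gene, with its mean CPM in gfp(RNAi) on the x axis and in exoc3(RNAi) on the y axis, both on log axes, and n = 3 libraries a group. The 71 tripled genes (red) lie above the dashed line of 3 times gfp(RNAi) and the dotted line of 2 CPM, and their gfp(RNAi) means run from 0.22 to 18.8 CPM.

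The difference stood in every library, as the rule of no overlap requires. Relative to the gfp(RNAi) mean of each gene, the median over the 71 genes was 1.85, 1.81 and 2.13 on the log2 scale in exoc3(RNAi) replicates 1, 2 and 3, where the median over all genes tested was 0.05, 0.06 and 0.08. In the gfp(RNAi) libraries the median over the 71 genes was -0.02, 0.03 and -0.01. In 69 of the 71 genes the lowest exoc3(RNAi) library was at least 2 times the highest gfp(RNAi) library. The limits on ratio and overlap largely set this count, so nothing is read from it. The coefficient of variation within a group had a median of 12.3% in exoc3(RNAi) and 12.7% in gfp(RNAi) over the 71 genes, against 6.25% and 5.09% over all genes tested.

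**Figure D2:**
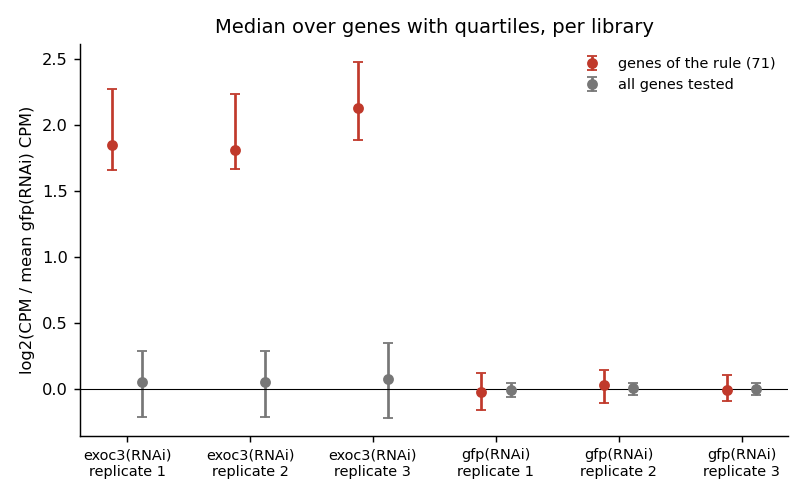
Points are medians over genes of log2(CPM / mean gfp(RNAi) CPM) in each library, and bars run between the quartiles. The 71 tripled genes (red) have medians of 1.81 to 2.13 in the 3 exoc3(RNAi) libraries and of -0.02 to 0.03 in the 3 gfp(RNAi) libraries, and all genes tested (grey) stay between -0.01 and 0.08.

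By name or domain, 37 of the 71 genes were placed in role groups, and 34 had no usable annotation at hand. Of these 34, 21 had no row in the tables used and 13 had a row with no usable entry, so that lack of annotation is a limit of those tables and is not a trait of the genes. Genes of lysosomal breakdown formed a group of 5. SMESG000049722.1, a cysteine protease of the papain family, to which most lysosomal cathepsins belong, had 44.2, 43.5 and 45.6 CPM in exoc3(RNAi) against 13.6, 12.6 and 12.7 CPM in gfp(RNAi), a ratio of 3.42. Its libraries lay close together within each group (44.4 ± 1.05 CPM in exoc3(RNAi) and 12.97 ± 0.53 CPM in gfp(RNAi), SD, n = 3 each). SMESG000019977.1, with saposin domains, had 18.5, 18.6 and 17.0 CPM against 3.26, 2.87 and 2.99 CPM in gfp(RNAi), a ratio of 5.94, the highest of this group. A further saposin-domain gene, SMESG000019986.1, had 12.6, 12.8 and 19.9 CPM in exoc3(RNAi) against 3.04, 3.47 and 3.22 CPM in gfp(RNAi). Here replicate 3 was 1.57 times the mean of the other exoc3(RNAi) libraries, and the ratio was 4.65 with it and 3.91 without it.

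SMESG000009912.1 carries the domain of alpha-galactosidase A, the lysosomal enzyme that removes terminal galactose from glycolipids. It had 15.6, 17.2 and 19.99 CPM in exoc3(RNAi) against 5.14, 5.45 and 5.06 CPM in gfp(RNAi). SMESG000074506.1, with the fold of purple acid phosphatases, had 5.12, 4.64 and 5.36 CPM in exoc3(RNAi) against 1.31, 1.53 and 1.42 CPM in gfp(RNAi). The lowest exoc3(RNAi) library was 2.86 to 5.22 times the highest gfp(RNAi) library across these 5 genes. Summed over the group, they had 96.0, 96.7 and 107.8 CPM in exoc3(RNAi) against 26.3, 25.9 and 25.4 CPM in gfp(RNAi). The limits require the sum to be higher in all 3 exoc3(RNAi) libraries.

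The other annotated genes of the same families had been called, with few exceptions, by the way the annotation was made. Of 2007 annotated genes outside the set that were tested, 610 were called higher and 1393 lower, so that only their direction, and not the number called, can be read. In the saposin and papain families the annotated genes outside the set were higher in exoc3(RNAi). Among them, 1 saposin-domain gene met the limits and was left out by identifier. Relatives of the galactosidase and the phosphatase were not looked at. Prosaposin (PSAP, SMESG000019976.1), the precursor of saposins, had 5.92, 5.47 and 5.45 CPM in exoc3(RNAi) against 2.37, 1.94 and 2.01 CPM in gfp(RNAi) (log2 fold change 1.36 ± 0.12 SE, adjusted p = 7.2e-07, edgeR). Its identifier is next to that of SMESG000019977.1 in the set. Cathepsin B (SMESG000048413.1), the other annotated papain-family protease, rose by 0.89 ± 0.08 on the log2 scale (adjusted p = 5.9e-07, edgeR). Cathepsin A (SMESG000029164.1), a serine carboxypeptidase of the lysosome, rose by 1.07 ± 0.07 (adjusted p = 9.6e-08, edgeR). Its family has no gene in the set, since the other annotated one met the limits and was left out by identifier.

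Enzymes of amino acid, nitrogen and carbon metabolism formed a second group of 5. SMESG000048127.1, a pyridoxal-phosphate dependent enzyme of the family that holds serine and threonine dehydratases, had a ratio at the top of the set. It had 6.58, 7.09 and 7.69 CPM in exoc3(RNAi) against 0.46, 0.51 and 0.77 CPM in gfp(RNAi), a ratio of 12.3, and that of the unannotated SMESG000065836.1 (12.0) exceeded it when exoc3(RNAi) replicate 1 or 2 or gfp(RNAi) replicate 3 was left out. Its gfp(RNAi) values rest on 15, 16 and 26 reads. PCK2 (SMESG000011426.1), the mitochondrial phosphoenolpyruvate carboxykinase that makes phosphoenolpyruvate from oxaloacetate, had 8.50, 7.99 and 9.04 CPM in exoc3(RNAi) against 2.16, 2.52 and 2.54 CPM in gfp(RNAi). ACSS3 (SMESG000043646.1), which activates short-chain fatty acids with coenzyme A, had 5.41, 5.50 and 5.95 CPM in exoc3(RNAi) against 1.64, 1.21 and 1.45 CPM in gfp(RNAi). The exoc3(RNAi) libraries of these 3 genes differed little among themselves.

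In the other 2 enzymes replicate 3 was the highest library by a wide margin. MTAP (SMESG000016252.1), the methylthioadenosine phosphorylase of methionine salvage, had 6.50, 7.68 and 11.9 CPM in exoc3(RNAi) against 2.56, 2.77 and 2.54 CPM in gfp(RNAi), and its ratio was 3.32 with replicate 3 and 2.703 without it. A glutamine synthetase (SMESG000000211.1), which builds glutamine from glutamate and ammonia, had 3.89, 3.77 and 6.27 CPM in exoc3(RNAi) against 1.52, 1.31 and 1.36 CPM in gfp(RNAi), and its ratio was 3.33 with replicate 3 and 2.74 without it. Both were above every gfp(RNAi) library in every exoc3(RNAi) library, as the limits require. The other annotated glutamine synthetase (SMESG000003831.1) stood outside the set, with 10.9, 10.001 and 13.7 CPM in exoc3(RNAi) against 3.41, 3.89 and 4.64 CPM in gfp(RNAi), and rose by 1.48 ± 0.13 on the log2 scale (adjusted p = 8.1e-07, edgeR). The other annotated phosphoenolpyruvate carboxykinase (SMESG000003144.1) fell by 0.21 on the log2 scale (SE 0.03, adjusted p = 6.2e-05, edgeR), with 374, 368 and 370 CPM in exoc3(RNAi) against 407, 422 and 408 CPM in gfp(RNAi).

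Transporters made a group of 5. SLC2A1 (SMESG000072446.1), a facilitative glucose transporter in other animals, had 10.2, 9.79 and 11.5 CPM in exoc3(RNAi) against 1.80, 2.20 and 1.95 CPM in gfp(RNAi), a ratio of 5.30. SLC39A14 (SMESG000016191.1), of the ZIP family that carries zinc into the cytosol, had 9.49, 9.41 and 13.0 CPM in exoc3(RNAi) against 2.98, 3.60 and 3.22 CPM in gfp(RNAi), and its ratio was 3.25 with replicate 3 and 2.89 without it. The permease slc23a-1 (SMESG000066904.1), of the family that carries nucleobases or vitamin C, had 4.90, 4.78 and 5.71 CPM in exoc3(RNAi) against 1.34, 1.59 and 1.30 CPM in gfp(RNAi). A cation-pumping ATPase (SMESG000008146.1) had 3.60, 3.84 and 3.15 CPM against 0.82, 1.11 and 1.18 CPM in gfp(RNAi). The groups did not overlap in any of the 4 genes, as the limits require.

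A major facilitator transporter (SMESG000076465.1) lay on the 2 CPM floor, with 1.55, 2.04 and 2.42 CPM in exoc3(RNAi) against 0.12, 0.22 and 0.33 CPM in gfp(RNAi), where 4, 7 and 11 reads were counted. Its ratio of 8.96 thus rests on few reads, and without replicate 3 the ratio was 8.03 and the mean under 2 CPM. Of the 9 other annotated sugar or major facilitator transporters, 1 was higher and 8 were lower in exoc3(RNAi), where 69.4% of all annotated genes outside the set were lower. The lower ones included a monocarboxylate transporter (SMESG000003109.1, log2 fold change -0.34 ± 0.04 SE, adjusted p = 1.9e-05, edgeR) and SLC18B1 (SMESG000055803.1, log2 fold change -0.38 ± 0.04 SE, adjusted p = 4.9e-06, edgeR). The other annotated ZIP transporter, SLC39A10 (SMESG000050464.1), had 160, 160 and 144 CPM in exoc3(RNAi) against 231, 235 and 231 CPM in gfp(RNAi), and fell by 0.64 on the log2 scale (SE 0.04, adjusted p = 8.2e-08, edgeR).

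Both innexins of the set carry neighbouring identifiers. SMESG000055257.1 had 4.32, 4.29 and 6.004 CPM in exoc3(RNAi) against 1.10, 1.43 and 1.36 CPM in gfp(RNAi), and SMESG000055258.1 had 3.09, 4.12 and 4.69 CPM in exoc3(RNAi) against 1.00, 0.96 and 1.01 CPM in gfp(RNAi). The other 4 annotated innexins were also called higher in exoc3(RNAi), with log2 fold changes of 0.23 to 1.26. The most read of them, SMESG000034762.1, had 238, 231 and 238 CPM in exoc3(RNAi) against 195, 195 and 193 CPM in gfp(RNAi) (log2 fold change 0.23 ± 0.03 SE, adjusted p = 3.5e-05, edgeR), and SMESG000043575.1 rose by 0.28 ± 0.05 (adjusted p = 0.00074, edgeR). Reads that fit more than 1 place were not counted, so values of near-identical copies are uncertain.

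**Figure D3:**
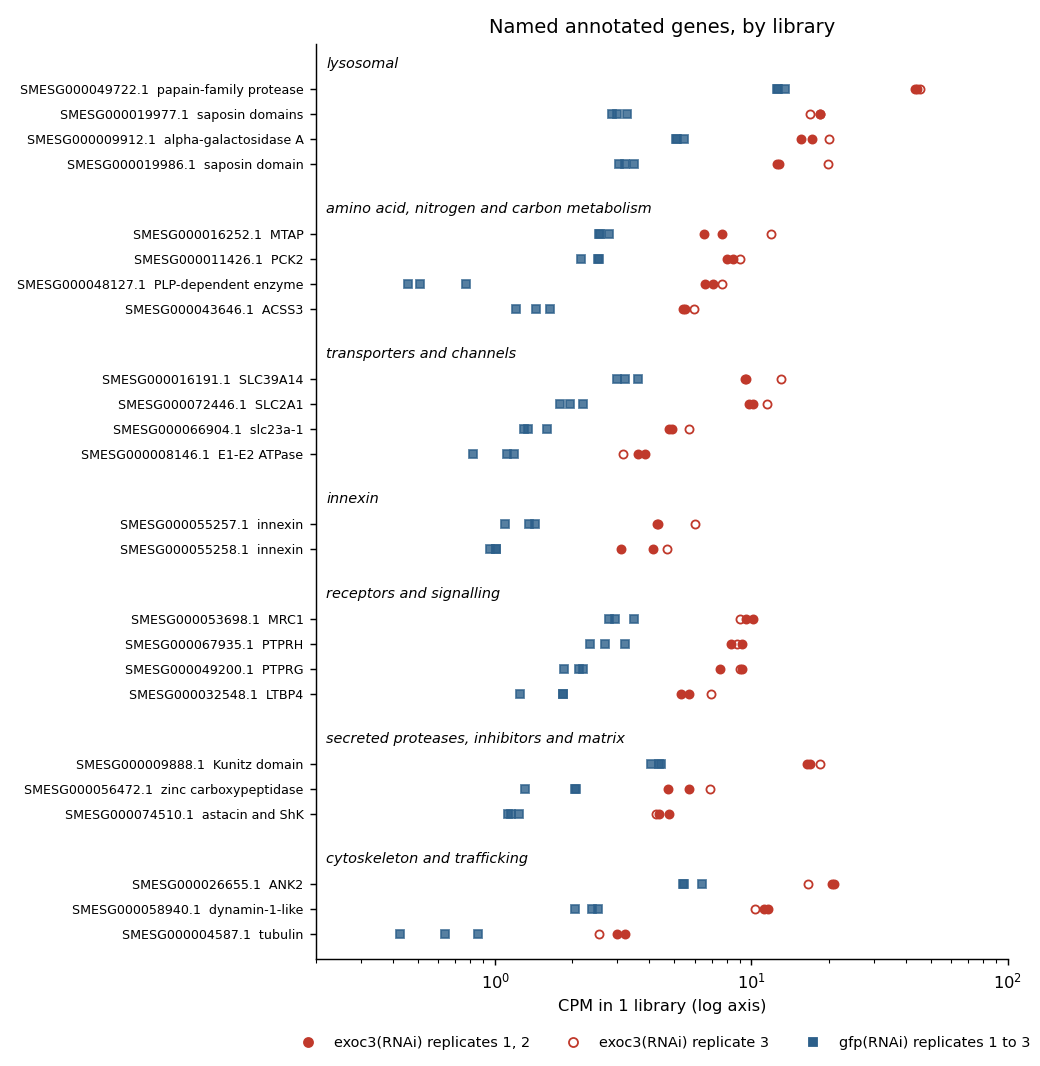
CPM of each library on a log axis for the annotated genes named by role, with exoc3(RNAi) replicates 1 and 2 as filled red circles, exoc3(RNAi) replicate 3 as an open red circle and the 3 gfp(RNAi) libraries as blue squares. The groups do not overlap in any row, as the limits require. The open circle stands to the right of the filled ones for MTAP, SLC39A14 and the saposin-domain gene SMESG000019986.1.

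Receptors and signalling genes were the largest annotated group, with 8 genes. MRC1 (SMESG000053698.1), in vertebrates a C-type lectin that takes up glycoproteins with exposed mannose, had 9.49, 10.2 and 9.04 CPM in exoc3(RNAi) against 2.92, 3.47 and 2.78 CPM in gfp(RNAi). Receptor-type tyrosine phosphatases gave 3 of the 8 genes. PTPRH (SMESG000067935.1) had 8.29, 9.17 and 8.80 CPM in exoc3(RNAi) against 2.34, 2.68 and 3.22 CPM in gfp(RNAi), and PTPRG (SMESG000049200.1) had 9.22, 7.54 and 9.01 CPM against 1.86, 2.20 and 2.13 CPM in gfp(RNAi). PTPRJ (SMESG000032045.1) had 3.52, 3.22 and 3.82 CPM in exoc3(RNAi) against 0.85, 0.92 and 1.24 CPM in gfp(RNAi). In these 3 phosphatases replicate 3 of exoc3(RNAi) was within the range of replicates 1 and 2 or close to it.

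A further gene annotated as PTPRH (SMESG000049097.1) lay under the limit, with 8.87, 7.41 and 8.07 CPM in exoc3(RNAi) against 2.92, 2.71 and 3.34 CPM in gfp(RNAi), and rose by 1.39 ± 0.11 on the log2 scale (adjusted p = 3.7e-07, edgeR). PPFIA2 (SMESG000048911.1), which in vertebrates binds such receptors and is no phosphatase itself, fell by 0.43 (SE 0.04, adjusted p = 6.2e-07, edgeR). Of the 3 other annotated genes with a C-type lectin domain, 1 was higher and 2 were lower in exoc3(RNAi). The 2 lower ones were a gene annotated as secretory phospholipase A2 receptor (SMESG000078439.1, log2 fold change -0.35 ± 0.04 SE, adjusted p = 3.2e-06, edgeR) and SMESG000016088.1 (log2 fold change -0.26 ± 0.04 SE, adjusted p = 0.00022, edgeR).

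SMESG000025307.1, a seven-transmembrane receptor of the rhodopsin family, had 3.54, 3.63 and 4.49 CPM in exoc3(RNAi) against 0.58, 0.48 and 0.47 CPM in gfp(RNAi), a ratio of 7.63, the highest of the signalling group. A gene similar to latent-transforming growth factor beta-binding protein 4, a matrix protein that holds the growth factor in store (SMESG000032548.1), had 5.73, 5.33 and 6.97 CPM in exoc3(RNAi) against 1.25, 1.85 and 1.83 CPM in gfp(RNAi). SMESG000019043.1, with an insulin-like fold, the fold of small secreted hormones, had 3.78, 2.87 and 3.21 CPM in exoc3(RNAi) against 0.73, 0.64 and 0.71 CPM in gfp(RNAi). SMESG000014480.1, with a TRAF-like domain, was among the 2 genes just inside the limit, with a ratio of 3.02. It had 5.62, 5.68 and 5.60 CPM in exoc3(RNAi) against 2.16, 1.56 and 1.86 CPM in gfp(RNAi), so the groups were still well apart.

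Secreted proteases and inhibitors were 3 genes. SMESG000009888.1, with a Kunitz domain, the fold of many inhibitors of serine proteases, had 16.9, 16.5 and 18.5 CPM in exoc3(RNAi) against 4.35, 4.43 and 4.05 CPM in gfp(RNAi), a ratio of 4.05. A zinc carboxypeptidase, an enzyme that trims residues from the end of a peptide (SMESG000056472.1), had 4.72, 5.71 and 6.88 CPM in exoc3(RNAi) against 2.07, 1.31 and 2.04 CPM in gfp(RNAi), and its ratio was 3.19 with replicate 3 and 2.89 without it. SMESG000074510.1, an astacin metalloprotease with a ShK domain, had 4.77, 4.36 and 4.23 CPM in exoc3(RNAi) against 1.16, 1.24 and 1.12 CPM in gfp(RNAi). Its relatives went both ways. Of 6 other annotated genes with an astacin or ShK domain, 4 were higher and 2 lower. SMESG000040790.1 had 147, 143 and 122 CPM in exoc3(RNAi) against 80.6, 79.8 and 79.3 CPM in gfp(RNAi) (log2 fold change 0.73 ± 0.06 SE, adjusted p = 4.4e-07, edgeR), while its neighbour by identifier, SMESG000040791.1, fell by 0.37 (SE 0.05, adjusted p = 3.5e-05, edgeR). Of 3 other zinc carboxypeptidases 1 was higher and 2 were lower, CPN1 (SMESG000062760.1, log2 fold change -1.06 ± 0.05 SE, adjusted p = 3.4e-09, edgeR) and AGTPBP1 (SMESG000063805.1, log2 fold change -0.70 ± 0.06 SE, adjusted p = 6.2e-07, edgeR).

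The cytoskeleton and trafficking genes were also 3. ANK2 (SMESG000026655.1), an ankyrin that ties membrane proteins to the spectrin skeleton, had 20.7, 21.0 and 16.6 CPM in exoc3(RNAi) against 5.42, 6.44 and 5.47 CPM in gfp(RNAi). A dynamin-1-like gene (SMESG000058940.1), a GTPase that divides mitochondria in other animals, had 11.2, 11.6 and 10.3 CPM in exoc3(RNAi) against 2.53, 2.39 and 2.04 CPM in gfp(RNAi), a ratio of 4.77. A tubulin (SMESG000004587.1), the subunit of microtubules, had 2.98, 3.22 and 2.54 CPM in exoc3(RNAi) against 0.43, 0.64 and 0.86 CPM in gfp(RNAi). In all 3 genes replicate 3 was the lowest of the exoc3(RNAi) libraries, and the sum of the group in replicate 3 was 0.83 times its mean in replicates 1 and 2.

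Relatives, meaning genes that share a domain, were looked at for the ankyrin and the dynamin, not for the tubulin. Of 29 other annotated genes with ankyrin repeats, 28 were lower in exoc3(RNAi) and 1 was higher, a gene that met the limits and was left out by identifier. The most read of them, SMESG000009320.1, had 346, 340 and 334 CPM in exoc3(RNAi) against 511, 522 and 512 CPM in gfp(RNAi) (log2 fold change -0.65 ± 0.03 SE, adjusted p = 4.1e-09, edgeR), and ANK3 (SMESG000058557.1) fell by 0.51 (SE 0.03, adjusted p = 2.4e-08, edgeR). SMESG000009320.1 also carries a Rel homology domain. The 3 other dynamin-family genes were lower as well, among them SMESG000034875.1 (log2 fold change -0.50 ± 0.04 SE, adjusted p = 8.9e-07, edgeR) and SMESG000022386.1 (log2 fold change -0.37 ± 0.04 SE, adjusted p = 1.7e-06, edgeR). SMESG000034875.1 is annotated as a transmembrane GTPase with an fzo-like region. Over the 15 families with other annotated genes, 20 of 68 (29.4%) were higher and 48 (70.6%) lower, close to the 30.4% and 69.4% over all annotated genes outside the set. Of the 68, 4 met the limits but were left out by identifier.

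Another 6 genes had a domain, a sequenced clone or a description that fits none of these groups. SMESG000055421.1, matched to a sequenced clone of unknown function, had 42.5, 41.6 and 47.8 CPM in exoc3(RNAi) against 13.6, 12.0 and 12.4 CPM in gfp(RNAi). SMESG000070256.1, with an L domain-like repeat fold, had 9.81, 9.45 and 10.3 CPM in exoc3(RNAi) against 3.04, 2.45 and 2.90 CPM in gfp(RNAi). SMESG000049483.1, again known from a clone, had 6.66, 7.16 and 9.50 CPM in exoc3(RNAi) against 2.40, 2.87 and 2.40 CPM in gfp(RNAi), and its ratio was 3.04 with replicate 3 and 2.705 without it. TTC36 (SMESG000037255.1), a tetratricopeptide repeat protein, had 3.97, 4.15 and 4.43 CPM in exoc3(RNAi) against 1.40, 1.34 and 1.09 CPM in gfp(RNAi). The other 2 genes of this group had mean levels of 3.08 and 2.99 CPM in exoc3(RNAi) against 0.66 and 0.73 CPM in gfp(RNAi).

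The 34 genes without usable annotation at hand took the largest part of the reads. Their sum was 289.2, 286.1 and 429.9 CPM in exoc3(RNAi) against 76.8, 72.1 and 74.9 CPM in gfp(RNAi). Of the exoc3(RNAi) sums, SMESG000054547.1 alone held 16.1, 17.3 and 100.6 CPM. The most read of them, SMESG000024663.1, had 89.6, 92.3 and 88.5 CPM in exoc3(RNAi) against 20.2, 17.4 and 18.8 CPM in gfp(RNAi), a ratio of 4.80. SMESG000007684.1 had 60.6, 57.9 and 57.9 CPM in exoc3(RNAi) against 11.6, 12.5 and 11.4 CPM in gfp(RNAi), a ratio of 4.96. Both were even across the libraries of a group. Of the 15 genes with a ratio of at least 5, 10 were without annotation, 4 of them with no row in the tables, and 5 were annotated.

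The unannotated gene with the highest ratio was SMESG000065836.1, with 1.76, 1.97 and 4.20 CPM in exoc3(RNAi) against 0.09, 0.13 and 0.44 CPM in gfp(RNAi). Its ratio of 12.0 rests on 3, 4 and 15 reads in gfp(RNAi), and replicate 3 was the highest library in each group. On the log2 scale the ratio was 3.58 over all libraries, 4.59 without gfp(RNAi) replicate 3 and 3.08 without exoc3(RNAi) replicate 3, where the exoc3(RNAi) mean was also under 2 CPM. SMESG000022742.1 came close, with 4.18, 3.25 and 3.79 CPM in exoc3(RNAi) against 0.24, 0.38 and 0.35 CPM in gfp(RNAi), a ratio of 11.4 and 8, 12 and 12 reads in gfp(RNAi). SMESG000003214.1, which carries a zebrafish clone name only, had 9.65, 10.1 and 17.2 CPM in exoc3(RNAi) against 1.22, 1.21 and 1.27 CPM in gfp(RNAi), a ratio of 9.99 with replicate 3 and 8.01 without it. SMESG000051013.1 had 7.04, 6.13 and 5.22 CPM in exoc3(RNAi) against 0.91, 0.76 and 0.74 CPM in gfp(RNAi), a ratio of 7.60, so that here replicate 3 was the lowest exoc3(RNAi) library.

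Replicate 3 of exoc3(RNAi) was the highest of its group for 46 of the 71 genes, replicate 1 for 15 and replicate 2 for 10. Replicate 3 was at least 1.5 times the mean of replicates 1 and 2 in 13 genes (18.3%), where 4.61% of all genes tested reached this. It was at least 2 times that mean in 7 genes, none of which had a row in the annotation tables. The limits used an exoc3(RNAi) mean that includes replicate 3, which favours genes high in that library. The 71 genes were also read at a lower level than most, so these counts are not read as a trait of them. SMESG000054547.1 was the extreme case, with 16.1, 17.3 and 100.6 CPM in exoc3(RNAi) against 14.9, 12.0 and 14.3 CPM in gfp(RNAi). Its ratio of 3.25 came from replicate 3 and was 1.22 without it, so this gene was not tripled in the other 2 exoc3(RNAi) libraries. SMESG000060612.1 had 9.57, 9.52 and 25.4 CPM in exoc3(RNAi) against 4.69, 4.62 and 4.38 CPM in gfp(RNAi), and its ratio was 3.25 with replicate 3 and 2.09 without it. SMESG000024741.1 had 17.0, 17.1 and 37.5 CPM in exoc3(RNAi) against 3.62, 3.25 and 3.64 CPM in gfp(RNAi), and stayed above the limit, with a ratio of 6.81 with replicate 3 and 4.86 without it.

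Without replicate 3, 55 of the 71 genes still met the limits. Of the other 16 genes, 13 had a ratio under 3 and 3 a mean under 2 CPM, and 10 were without annotation. Not all of them are described here. SMESG000071507.1 had 1.81, 0.93 and 4.20 CPM in exoc3(RNAi) against 0.40, 0.38 and 0.27 CPM in gfp(RNAi). Its ratio was 6.65 with replicate 3 and 3.95 without it, where the exoc3(RNAi) mean was under 2 CPM. The ratio of the summed CPM was 4.09 with replicate 3 and 3.73 without it. Leaving out SMESG000054547.1 alone gave 4.16 with replicate 3 and 3.95 without it. The sums of the role groups in replicate 3 ranged from 0.83 times (cytoskeleton) to 1.49 times (unannotated) the mean of replicates 1 and 2, with the lysosomal group at 1.12 and the receptors at 1.05. The unannotated sum includes SMESG000054547.1. Over all members this factor was 1.29 with that gene and 1.16 without it, so the 1.49 is not read as a trait of the unannotated genes. What sets this library apart was not tested.

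**Figure D4:**
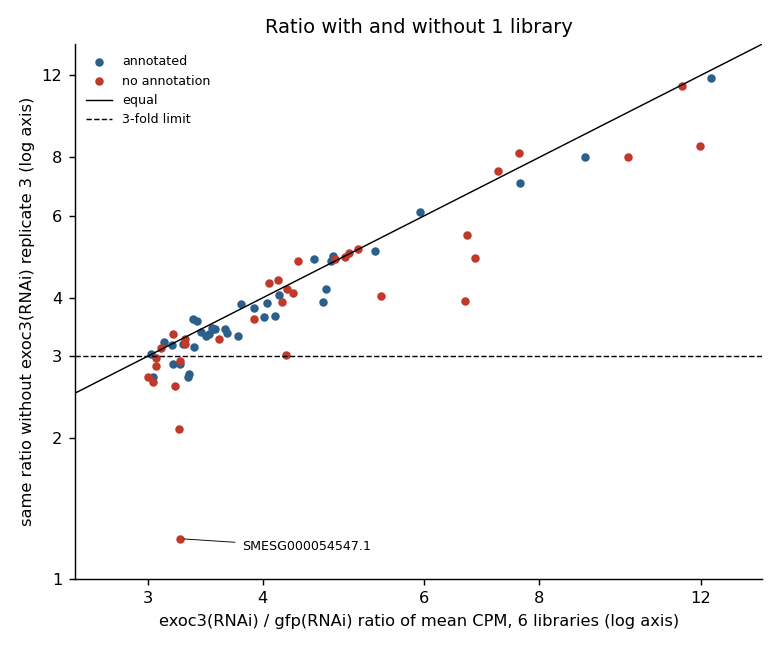
Each point is 1 of the 71 genes, with its ratio of mean CPM over all 6 libraries on the x axis and the same ratio without exoc3(RNAi) replicate 3 on the y axis, both on log axes. Genes without annotation are red, annotated genes blue, the solid line marks equal values and the dashed line the limit of 3. SMESG000054547.1 drops to 1.22, and 13 points lie under the dashed line.

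At the edge of the set, the genes just inside were SMESG000064939.1, with 2.80, 2.84 and 3.73 CPM in exoc3(RNAi) against 1.37, 0.92 and 0.83 CPM in gfp(RNAi) (ratio 3.0, and 2.71 without exoc3(RNAi) replicate 3), and the TRAF-like gene above. Just outside lay SMESG000004901.1, with 31.5, 34.8 and 36.1 CPM in exoc3(RNAi) against 12.3, 10.9 and 11.03 CPM in gfp(RNAi) (ratio 2.99), and SMESG000049222.1, with 2.69, 2.21 and 3.26 CPM in exoc3(RNAi) against 0.97, 0.76 and 1.01 CPM in gfp(RNAi) (ratio 2.98). All 4 genes were chosen with no overlap between the groups.

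Some genes of the set had neighbouring identifiers. In 6 genes the gene model with the next identifier was also a member, as for the innexins, for the transporter SMESG000076465.1 and the unannotated SMESG000076464.1, and for SMESG000079925.1 and SMESG000079926.1. Within 20 identifiers another member was found for 13 genes. Neither count has a share for sets of this size beside it, so no excess is read from them. Of 47 tested genes directly next to a member by identifier, 16 were called higher and 11 lower in exoc3(RNAi), where 25.8% and 27.1% of all genes tested were under the same scaling. The order of identifiers along the genome was not used here, and this count was chosen after the values were seen.

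No tripled gene was on the lists of cell type markers, which were drawn from the same annotation of mostly called genes. The lists held 42 genes and the tripled genes were few among all genes tested, so an overlap was unlikely from size alone. For the epidermal progenitor list, which holds genes found lower, an overlap was also excluded in advance. Nothing is therefore read from this absence. Of the annotated genes outside the set, 30.4% were called higher and 69.4% lower, so the counts of calls stand beside those shares. Of the neoblast list (smedwi-2, smedwi-3, vasa-1, soxP-1 and soxP-2), 5 of 5 were called lower in exoc3(RNAi), with summed levels of 7550 to 8199 CPM against 9677 to 9840 CPM in gfp(RNAi). These 5 were picked by name. In the larger published neoblast lists, the study reported some genes lower and others higher. Epidermal progenitor genes were lower in 20 of 20, with 1564 to 1601 CPM in exoc3(RNAi) against 3031 to 3086 CPM in gfp(RNAi). That list holds genes the study had found lower in these same libraries, so its direction was fixed in advance. Of 7 neuronal genes 4 were higher and 3 lower, with 510.2 to 523.2 CPM in exoc3(RNAi) against 451.9 to 466.5 CPM in gfp(RNAi). Of 8 muscle genes 2 were higher and 6 lower, with 357.0 to 373.9 CPM in exoc3(RNAi) against 430.7 to 435.7 CPM in gfp(RNAi). Both gut genes were lower, with 6.18 to 7.33 CPM in exoc3(RNAi) against 10.003 to 12.5 CPM in gfp(RNAi). None of the 42 marker genes was at 0, and their part in the levels of the tripled genes was not tested.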

How the data were processed

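Messenger RNA of sorted X1 cells was sequenced in 3 exoc3(RNAi) and 3 gfp(RNAi) libraries (stranded TruSeq, single-end). The authors mapped reads with STAR 2.7.2b and counted uniquely mapped reads per gene model by strand with featureCounts 1.6.5, and the deposited files hold these raw counts. Reads that fit several places or several genes were not counted.

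CPM was the count divided by the library total, times 1000000. edgeR 4.0.16 (R 4.3.3) was run on the counts of all 6 libraries with filterByExpr, TMM factors and the quasi-likelihood test, two-sided, with Benjamini-Hochberg adjustment over the 14700 genes tested. It was checked on simulated counts. Alternatives were DESeq2 1.42.0, other scaling and filters, a replicate block and each library left out. Names and domains came from the annotation columns of the study's tables, which cover 2057 genes, nearly all of them called, and no value in them was used.

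The members and lists were chosen with earlier results of these data known. In each role group the 4 most read genes were named (all where there were up to 4), 3 without annotation, the 2 highest and 2 lowest ratios, 2 genes just outside and up to 2 other genes a family. All further genes were named after their values were seen. The p-values measure the spread between these libraries only.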

Additional observations from a re-analysis of the deposited data

How the results depend on the processing

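The 71 genes depended on the limits: 114 genes met them with a floor of 1 CPM, 33 with 5 CPM, 225 with a fold of 2 and 34 with a fold of 4. TMM-scaled totals or DESeq2 size factors each kept 63 of the 71 and added none, and dropping the rule of no overlap changed nothing. Leaving out 1 library gave 57 to 88 genes, of which 55 to 70 were shared with the 71. The median log2 ratio of the members stayed at 1.85 to 1.99 over the alternatives in scaling, fit and libraries. The 71 genes were held fixed there and were chosen by a ratio of at least 3, so this was largely set in advance. For single genes, leaving out exoc3(RNAi) replicate 3 lowered the log2 ratio of SMESG000054547.1 to 0.29, against 1.70 over all libraries, and leaving out gfp(RNAi) replicate 3 raised that of SMESG000065836.1 to 4.59, against 3.58.

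Genes called over the whole series numbered 7784, and 6327 to 8115 under the alternatives (6642 to 8115 with 1 library left out), with 7642 under a replicate block. Replicate numbers did not pair the libraries (correlations of deviations -0.01, 0.01 and -0.03). The 68 other family genes stayed called in the same directions under every alternative. This was largely fixed, since the annotation lists almost only genes that the study called in these same libraries. The ratios of the least read members rest on as few as 3 reads in a gfp(RNAi) library.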
